A study of Mus musculus with 24 samples.

Results

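The 46 interferon response genes described here are transcripts that interferon is known to raise: transcription factors of the pathway, IFIT proteins, GTPases, OAS proteins, RNA sensors, genes of the ISG15 pathway, restriction factors and others. They were taken from a list of gene symbols, and that list was chosen with earlier results of these data known. Of the 46, 44 had at least 1 probe set annotated to that symbol alone (73 probe sets), and 43 passed the filter on dim genes and entered the tests, out of 12765 genes tested and 18194 with such a probe set. Isg15 was covered only by a probe set shared with Gm9706, and Ifi44 by no probe set with a single symbol. Mx1, a GTPase that blocks influenza viruses, lay between 3.14 and 4.16 (log2) on all 13 arrays and failed the filter. Transcripts were measured on Affymetrix expression arrays in 3 populations sorted from the marrow of 129ola mice aged 8 to 12 weeks: hematopoietic stem cells (HSC), progenitors of the myeloid lineage (MP), and progenitors of B cells. The hypomorph mice carried the genotype Dnmt1-/chip, which lowers the maintenance DNA methyltransferase, and the wildtype mice were Dnmt1+/+. The alleles are not stated to be confined to any cell type, and no treatment is stated. There were 2 arrays of wildtype HSC, 3 of hypomorph HSC, 3 of wildtype MP, 3 of hypomorph MP and 2 of wildtype B progenitors. The series asks how low DNA methylation changes transcripts of stem and progenitor cells. Nothing in its labels ties the arrays of a group to different animals, so the p-values reflect the spread among these arrays alone, which may be technical.

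Interferons of type I signal through the receptor pair Ifnar1 and Ifnar2 and the kinases Jak1 and Tyk2 to a complex that holds Stat2 and Irf9. That complex binds the interferon-stimulated response element (ISRE) in promoters, whereas interferon gamma acts through the gamma-activated site (GAS). The induced proteins degrade, edit or sequester foreign RNA, block virus entry and release, and process antigens; stem cells are known to hold part of this programme at a raised basal level.

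On these arrays the targeted Dnmt1 transcript was lower in every hypomorph array than in every wildtype array of the same cell type, by 2.75 (SE 0.24) in HSC and 3.34 (SE 0.22) in MP on the log2 scale. The sorted populations carried their own markers: the 9 B cell progenitor markers averaged 11.27 and 11.28 in B progenitors against 4.53 to 5.11 elsewhere, and the 7 myeloid progenitor markers 12.43 to 12.6 in MP against 4.68 to 9.06 elsewhere. The 9 HSC markers averaged 10.17 and 10.22 in wildtype HSC, 9.27 to 9.7 in hypomorph HSC and 5.1 to 7.92 in the other groups. All values are deposited RMA intensities read as log2. Without detection calls a dim gene cannot be placed above or below background, and the number of arrays limits the precision. In sorted bulk samples, fewer cells of a type and less RNA per cell cannot be told apart.

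The promoters of the members that differed with genotype are shown because the ISRE is the element through which the pathway acts. Both strands of the 300 bases around each RefSeq start (250 before and 50 after, build GRCm38.p6) were searched for the core of the ISRE (GAAA, then 2 bases of any kind, then GAAA) and for TTCNNNGAA, the GAS. A promoter was held for 35 of the 46 members. The ISRE core was found in 16 of these (45.7%), against 3.99% of 27025 genes, and the GAS in 11 (31.4%), against 9.55%. Counted by promoter, 3.44% of 32851 promoters of the same length held the ISRE core and 8.3% the GAS. In 2 promoters of members the matches of both motifs overlapped. A match is a description of letters, not of a bound site. The sequences below are the 250 bases before the start, read 5′ to 3′ on the gene's strand, with every ISRE core in capitals; positions are counted backwards from the start. Ifit1, chr19:34640639-34640888 (plus strand), has a core at -104 to -95 and a further at -85 to -76, both on the reverse strand. Ifit3, chr19:34583279-34583528 (plus strand), has its pair at -156 to -147 and -122 to -113. Rsad2, chr12:26456453-26456702 (minus strand), has a single core at -120 to -111 and Stat2, chr10:128270248-128270497 (plus strand), at -222 to -213. Irgm1, chr11:48871421-48871670 (minus strand), has overlapping cores at -30 to -21 and -24 to -15 in the forward direction. None of these 5 promoters held a GAS match.
Ifit1: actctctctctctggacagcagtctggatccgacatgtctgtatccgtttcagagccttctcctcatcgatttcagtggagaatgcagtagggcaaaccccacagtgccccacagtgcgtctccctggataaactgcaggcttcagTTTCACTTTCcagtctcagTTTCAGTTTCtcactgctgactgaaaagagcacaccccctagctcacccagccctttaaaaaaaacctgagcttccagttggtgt
Ifit3: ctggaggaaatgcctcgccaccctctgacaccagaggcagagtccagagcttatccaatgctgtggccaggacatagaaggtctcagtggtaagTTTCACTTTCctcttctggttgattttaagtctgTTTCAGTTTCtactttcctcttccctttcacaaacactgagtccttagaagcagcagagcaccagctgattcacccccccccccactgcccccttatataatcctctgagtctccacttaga
Rsad2: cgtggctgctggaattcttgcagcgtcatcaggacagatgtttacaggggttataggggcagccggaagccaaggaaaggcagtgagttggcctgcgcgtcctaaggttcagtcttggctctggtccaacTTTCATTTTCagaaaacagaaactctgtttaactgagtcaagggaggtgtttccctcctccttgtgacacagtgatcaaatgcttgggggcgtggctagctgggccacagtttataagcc
Stat2: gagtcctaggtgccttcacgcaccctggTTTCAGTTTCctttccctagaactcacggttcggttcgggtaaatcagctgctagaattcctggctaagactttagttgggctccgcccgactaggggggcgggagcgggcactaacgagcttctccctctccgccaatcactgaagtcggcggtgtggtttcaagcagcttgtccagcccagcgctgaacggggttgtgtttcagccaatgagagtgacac
Irgm1: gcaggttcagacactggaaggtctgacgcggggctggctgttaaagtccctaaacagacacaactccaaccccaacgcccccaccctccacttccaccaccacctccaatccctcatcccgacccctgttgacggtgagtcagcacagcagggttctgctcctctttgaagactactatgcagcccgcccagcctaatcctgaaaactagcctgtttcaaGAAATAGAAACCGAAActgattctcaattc
The spacing of the cores differs between these promoters, and the paired cores of Ifit1 and Ifit3 have the same letters, TTTCACTTTC followed by TTTCAGTTTC. Oas2, the remaining member called in HSC, is named without a sequence.

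Wildtype HSC held the interferon response genes at the highest level of the 5 groups. The group mean was highest in wildtype HSC for 29 of the 43 members tested (67.4%), against 36% of all genes tested. The mean level over the 43 members was 8.25 and 8.39 on the wildtype HSC arrays, 7.64 to 8.12 in hypomorph HSC, 7.2 to 7.24 in wildtype MP, 7.08 to 7.17 in hypomorph MP, and 6.76 and 7.07 in B progenitors. The lowest wildtype HSC array therefore lay above the highest hypomorph HSC array, and all HSC arrays lay above all MP and B progenitor arrays. Among the hypomorph HSC arrays, array 3 was the lowest of its group for 27 of 43 members (62.8%), against 49.1% of all genes, and array 1 was the highest for 31. The members differed widely in how far their group means spread: by 6.33 for Ifitm3 and 5.85 for Ifitm1, but by only 0.42 for Sp100 and 0.5 for Eif2ak2.

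**Figure D1:**
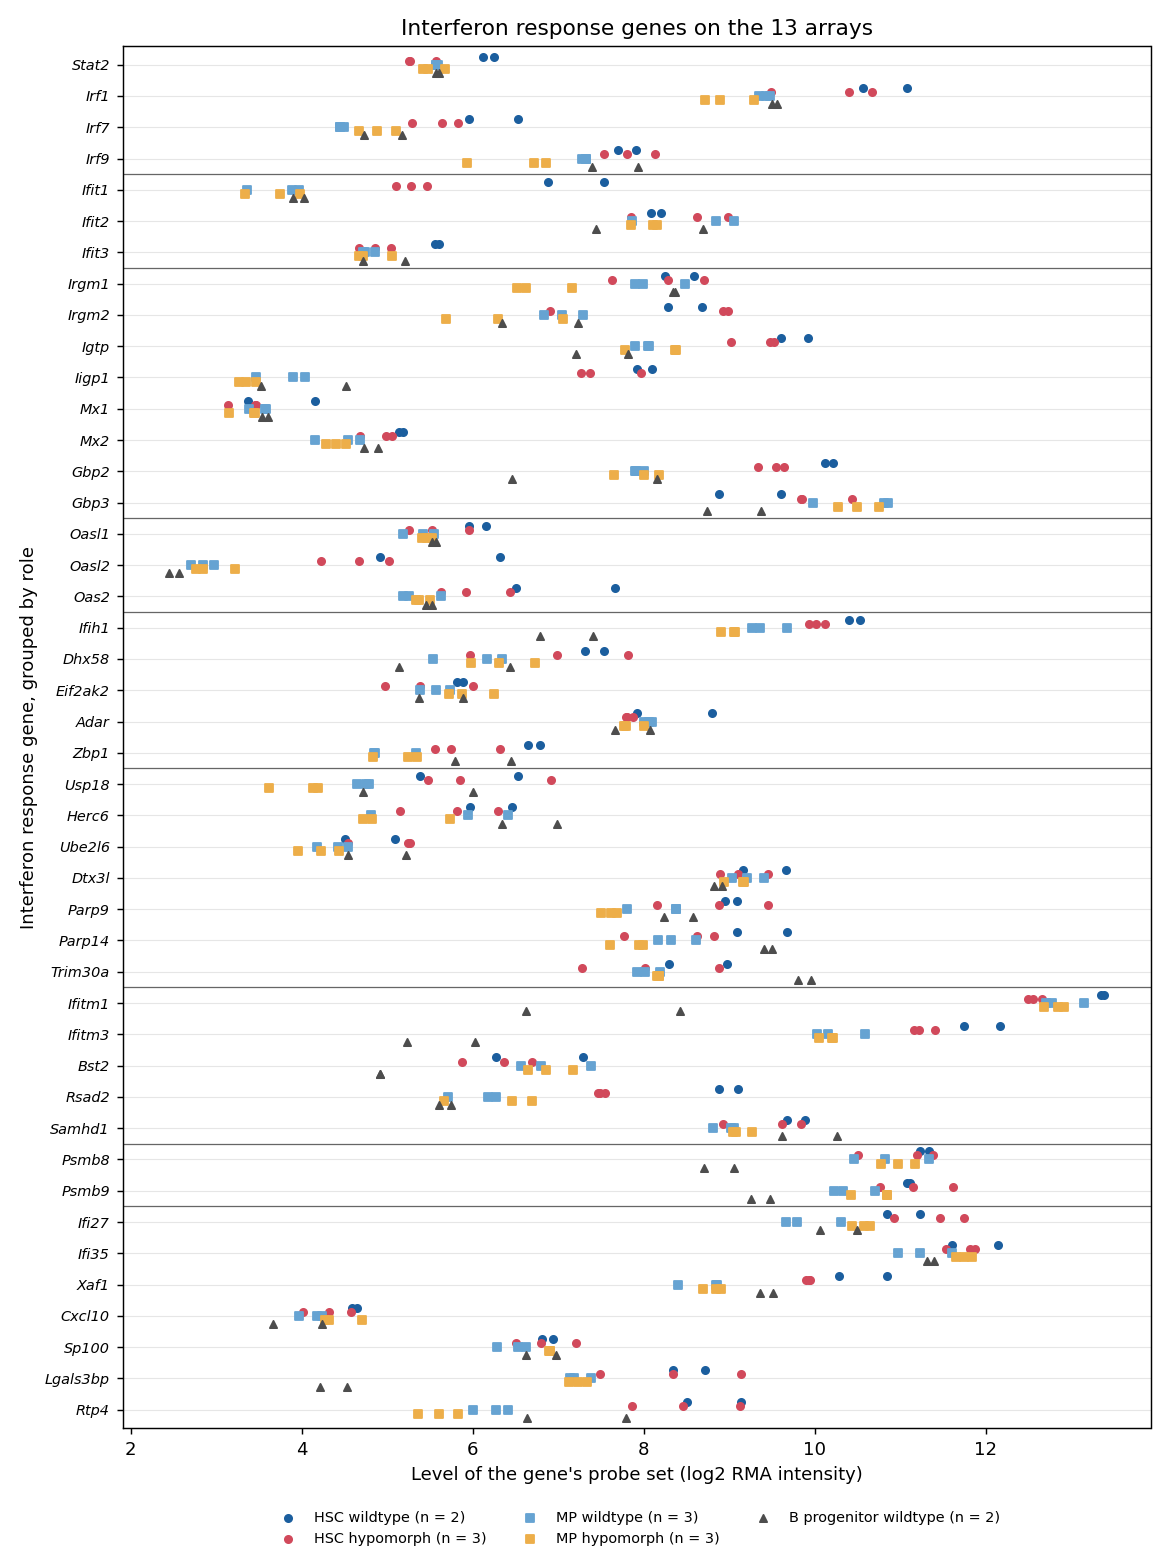
Level of the probe set of each of the 44 measured interferon response genes (x axis, log2 RMA intensity) on each of the 13 arrays; each point is 1 array, colour and shape give the group, and lines separate roles. Wildtype HSC (dark blue circles) lie at the right for most genes, and B progenitors (triangles) far to the left for Ifitm1, Ifitm3, Lgals3bp and Ifih1.

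Hypomorph HSC had lower levels of 5 interferon response genes than wildtype HSC, and of the 43 members 0 were higher. The genes were Ifit1, Rsad2, Oas2, Stat2 and Ifit3, called at an adjusted p under 0.05 in limma over all genes tested. The 5 are 11.6% of the members, beside 5.44% of all 12765 genes called lower (5.37% were called higher). At an unadjusted p under 0.05 there were 14 lower members and 1 higher, together 34.9% of the members, beside 26.2% of all genes. The members' median difference was -0.44 and that of all genes -0.11; 36 differences were negative and 7 positive. Both wildtype arrays lay above all 3 hypomorph arrays for 18 members (41.9%), against 22.4% of all genes, and below them for 1 (2.33%), against 13.1%.

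Among the transcription factors, Stat2, the subunit that brings a transactivation domain to the complex with Irf9, stood at 6.25 and 6.12 in wildtype HSC. In hypomorph HSC it was at 5.57, 5.25 and 5.26. The groups did not overlap, and Stat2 was lower by 0.83 (limma SE 0.19, adjusted p = 0.0131). Stat2 stood at 5.42 to 5.67 on the 6 MP arrays, so the hypomorph HSC arrays lay near or below the MP level. Irf7, the amplifier of type I interferon production, differed by -0.65 (SE 0.24, limma adjusted p = 0.102), and Irf1 by -0.64 (SE 0.31, adjusted p = 0.206 in limma), neither past the threshold. Irf9, the DNA-binding subunit, differed by 0.02, with a 95% interval from -0.58 to 0.63.

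In the IFIT family, whose proteins bind viral RNA lacking host cap marks, Ifit1 was at 6.88 and 7.54 in wildtype HSC. It was at 5.28, 5.1 and 5.46 in hypomorph HSC. The hypomorph arrays lay closely together and well under both wildtype arrays. Ifit1 was lower by 1.93 (SE 0.27, limma adjusted p = 0.000696), a 3.81-fold difference. Ifit3, of the same family, was at 5.56 and 5.61 in wildtype HSC and at 5.04, 4.67 and 4.86 in hypomorph HSC. These groups also did not overlap, at levels little above the array medians of 4.56 to 4.74, and Ifit3 was lower by 0.73 (SE 0.21, limma adjusted p = 0.0431). Ifit2, the neighbour of Ifit3 on chromosome 19 with 0 protein-coding genes between them, differed by 0.34 (95% interval -0.55 to 1.23) and did not pass the test.

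Rsad2, which makes the chain terminator nucleotide that stops viral polymerases (viperin), was at 9.1 and 8.88 in wildtype HSC and at 7.55, 7.49 and 7.46 in hypomorph HSC. The gap between the groups was many times the spread within either. Rsad2 was lower by 1.49 (SE 0.28, limma adjusted p = 0.0046), and its further tested probe set by 1.05 (adjusted p over all probe sets in limma = 0.0139). Of the other entry and release restriction factors, Ifitm3 differed by -0.7 (SE 0.26) and Ifitm1 by -0.8 (SE 0.37). Their groups did not overlap, yet neither passed the test (limma adjusted p = 0.102 and 0.187). Bst2 (tetherin) differed by -0.48 and Samhd1, which depletes nucleotides, by -0.31, each with overlapping arrays.

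In the OAS family, whose enzymes make the second messenger that activates RNase L, Oas2 was at 6.51 and 7.66 in wildtype HSC. It was at 6.43, 5.63 and 5.92 in hypomorph HSC. The highest hypomorph array lay just under the lowest wildtype array. Oas2 was lower by 1.09 (SE 0.31, limma adjusted p = 0.0386). Its call was lost under most alternatives and held in 7 of 20. With each array left out in turn, it held in 3 of 13 runs. Without wildtype array 2 the difference was -0.52. Oasl2 differed by -0.98 (SE 0.34) with overlapping arrays and Oasl1, a brake on Irf7 translation, by -0.48 (SE 0.22), and neither was called.

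The remaining roles had 0 called members in HSC. The 5 RNA sensors and editing genes all had negative differences, from -0.84 for Zbp1, a sensor of Z-form nucleic acid, to -0.4 for Eif2ak2 (PKR). The 7 GTPases ran from -0.66 for Gbp2 to 0.8 for Gbp3, whose 3 hypomorph arrays all lay above the wildtype arrays. The 7 genes of the ISG15 pathway and ubiquitin ranged from -0.98 to 0.22. Parp14, a mono-ADP-ribosyltransferase, had the largest of these differences (-0.98, SE 0.3) and fell just short of the threshold (limma adjusted p = 0.0504). The immunoproteasome subunits Psmb8 and Psmb9 differed by -0.26 and 0.08, and the 7 other members by -0.64 (Xaf1) to 0.34 (Ifi27).

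The count of 5 was not firm at its lower end. Ifit1 and Rsad2 kept their calls in all 20 and 21 alternatives in which they were tested, Stat2 in 17 of 20, Ifit3 in 9 of 20 and Oas2 in 7 of 20. The count was 2 (4.65%) without hypomorph HSC array 2, beside 2.59% of all genes. Leaving out wildtype HSC array 1 or array 2 left a single array in that group. The median difference of all genes was then -0.15 or -0.05. The count was 3 (6.98%) when MP hypomorph 1, MP hypomorph 3, MP wildtype 1 or MP wildtype 3 was left out. In those runs 4.1% to 4.33% of all genes were lower. MP arrays enter this comparison only through the estimate of the spread.

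**Figure D2:**
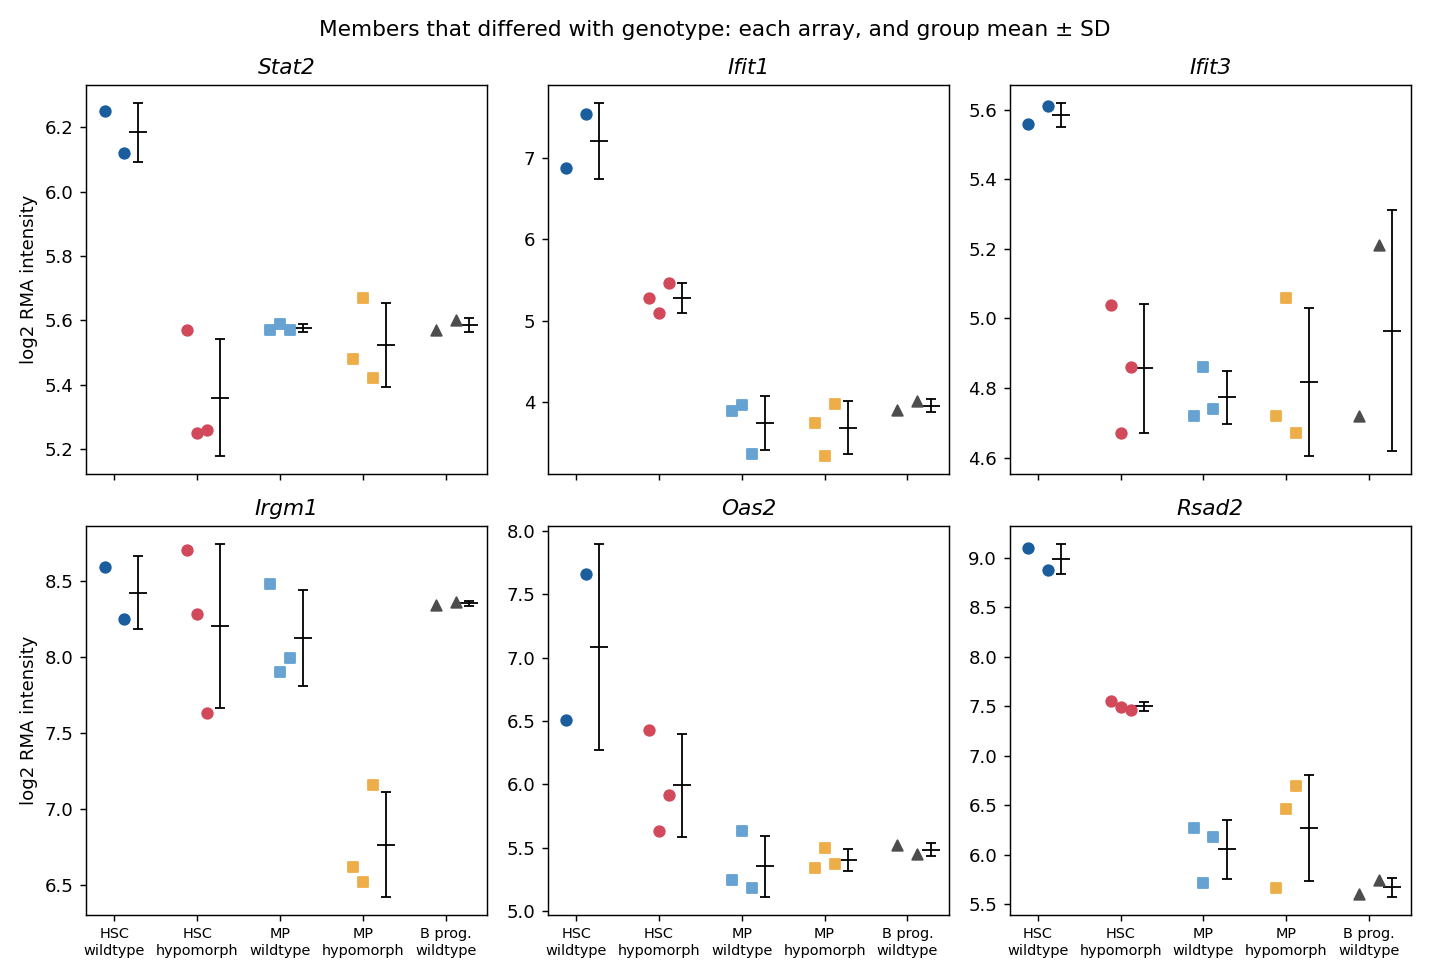
Levels (y axis, log2 RMA intensity, a separate scale in each panel) of the 6 members called between genotypes in HSC or MP; points are arrays, and the black mark and bar are the group mean and SD. In Stat2, Ifit1, Ifit3, Oas2 and Rsad2 the 2 wildtype HSC arrays lie above the 3 hypomorph HSC arrays, and in Irgm1 the 3 hypomorph MP arrays lie below all others.

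Other genes moved with genotype in the same HSC arrays. Of 14 proliferation genes, 9 were higher in hypomorph HSC, with a median difference of 1.14; their mean level was 8.97 and 9.16 on the wildtype arrays and 10.08 to 10.62 on the hypomorph arrays. Of the 9 HSC markers 3 were lower and 1 higher, and of the 7 myeloid progenitor markers 2 were higher, with mean levels of 8.1 and 7.56 in wildtype and 8.67 to 9.06 in hypomorph HSC. Of 7 neutrophil and monocyte markers tested 1 was higher (median 1.1). Lower in hypomorph HSC were 2 of 4 endothelium and stroma markers (median -0.84), 2 of 9 B cell progenitor markers (median -0.36) and 1 of 6 megakaryocyte markers (median -0.27). The 7 endothelium and stroma markers with a probe set averaged 4.9 and 5.1 in wildtype HSC and 4.38 to 4.71 in hypomorph HSC. The part of these differences in the fall of the interferon response genes was not tested. Markers of dendritic cells (9 genes) averaged 5.01 and 5.13 in wildtype HSC and 4.92 to 5.04 in hypomorph HSC, and of these 0 of 4 tested were called. That average is raised by Flt3, at 8.85 and 10.13 in wildtype HSC, and Klk1, at 8.37 and 8.81. The next highest there, Siglech, stood at 4.78 and 4.9, so the average says little about dendritic cells. The 10 macrophage markers averaged 4.41 and 4.52 against 4.52 to 4.83, with 0 of 5 tested called.

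**Figure D3:**
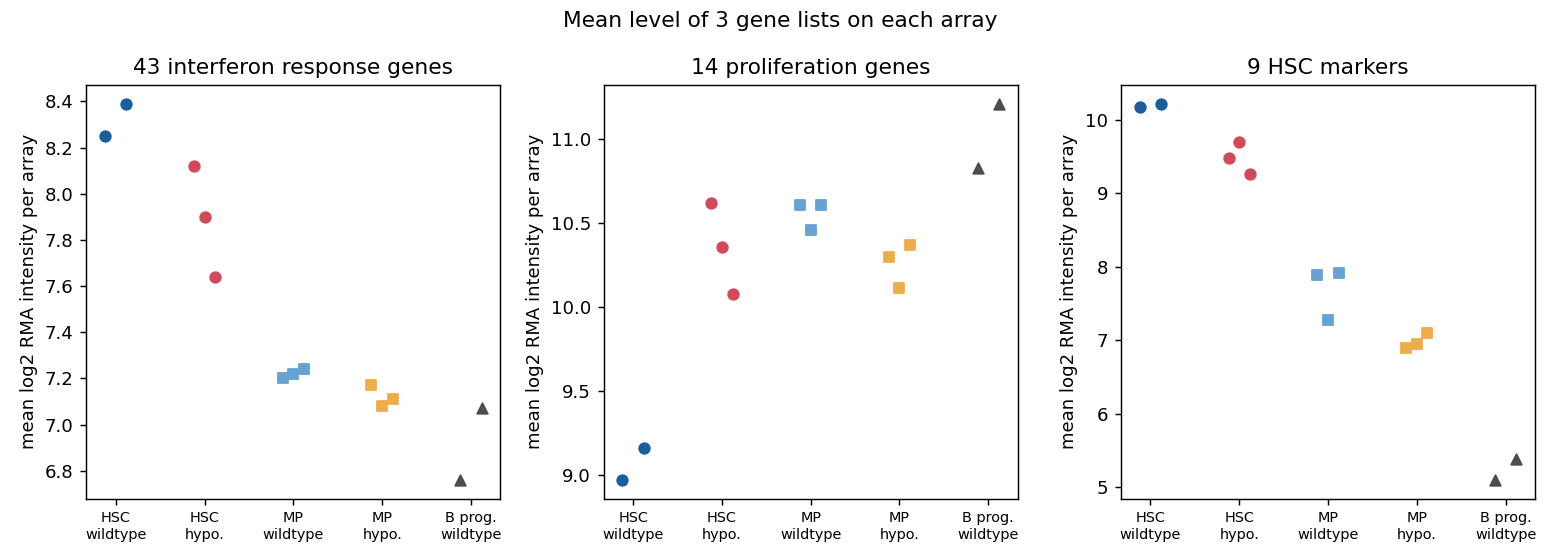
Mean log2 RMA intensity per array (y axis, separate scale in each panel) of the 43 tested interferon response genes, 14 proliferation genes and 9 HSC markers; each point is 1 array. The interferon mean falls from 8.25 and 8.39 in wildtype HSC to 6.76 and 7.07 in B progenitors, while the proliferation mean is lowest in wildtype HSC, at 8.97 and 9.16.

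In MP the hypomorph and wildtype arrays differed in 1 interferon response gene. Irgm1, an immunity-related GTPase that regulates autophagy and restrains the effector GTPases of its family, was at 8.48, 7.9 and 7.99 in wildtype MP. It was at 6.62, 6.52 and 7.16 in hypomorph MP. The groups did not overlap, and Irgm1 was lower by 1.36 (SE 0.27, limma adjusted p = 0.0412), a 2.56-fold difference. The 1 member is 2.33% of 43, beside 0.251% of all genes called lower in this comparison; 0 were higher, beside 0.337%. At an unadjusted p under 0.05, 3 members were lower and 2 higher, together 11.6%, beside 15% of all genes. The median difference was -0.02 for the members and for all genes alike, with 20 positive and 23 negative differences. The hypomorph arrays lay below all wildtype arrays for 8 members (18.6%) and above them for 5 (11.6%), against 16.3% and 11.4% of all genes. In the same arrays 1 of 5 macrophage markers was higher, and 1 of 4 dendritic cell markers and 1 of 9 HSC markers were lower; their part in the Irgm1 difference was not tested.

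The 5 members lower in HSC lay close to 0 in MP. For Ifit1 all MP arrays lay between 3.34 and 3.98, below the array medians of 4.56 to 4.74. A fall of Ifit1 in MP may therefore not be measurable. Ifit1 differed there by -0.05 (95% interval -0.57 to 0.46), Rsad2 by 0.22 (-0.32 to 0.75), Oas2 by 0.05 (-0.55 to 0.65), Stat2 by -0.05 (-0.41 to 0.31) and Ifit3 by 0.04 (-0.37 to 0.45). Irf9 differed by -0.8 (SE 0.25) and Usp18, the protease that removes ISG15 and damps the receptor, by -0.75 (SE 0.4), without passing the test (limma adjusted p = 0.198 and 0.394). Irgm2, of the same GTPase family as Irgm1, differed by -0.7 (SE 0.48) with overlapping arrays, and Igtp by 0.18. The Irgm1 call held in 11 of 21 alternatives; its limma adjusted p ran from 0.000503 to 0.27. It was lost without HSC hypomorph 2, MP hypomorph 1, MP hypomorph 2, MP wildtype 1, MP wildtype 3 or either B progenitor array, each leaving 0 called members.

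The genotype effect was called as different between HSC and MP for 2 members. For Ifit1 the MP arrays lay below the array medians, so its MP level may be no more than background. In the interaction term, Ifit1 had a difference of effects of -1.88 (SE 0.36, limma adjusted p = 0.0112) and Rsad2 of -1.71 (SE 0.37, limma adjusted p = 0.0197). The 2 are 4.65% of the members, beside 2.37% of all genes; 0 members were called in the other direction, beside 3.27%. At an unadjusted p under 0.05 these counts were 9 and 2, together 25.6%, a share close to the 24.1% of all genes. For Stat2 (-0.78), Oas2 (-1.14), Ifit3 (-0.77) and Irgm1 (1.14) the difference between the cell types did not pass the test, with limma adjusted p from 0.0824 to 0.123. The Ifit1 call was lost without wildtype HSC array 2 (-1.55, limma adjusted p = 0.0541, the highest over its alternatives, which began at 0.00291). The Rsad2 call was lost without HSC hypomorph 2 or MP hypomorph 2 and in the second normalization; its adjusted p in limma ran from 0.00722 to 0.0719. The count was 1 (2.33%) without HSC hypomorph 2 or MP hypomorph 2, beside 0.823% of all genes in each run. Leaving out HSC wildtype 1 or HSC wildtype 2 left a single array in that group. Without HSC hypomorph 3, 1 member (2.33%) was called in the other direction, beside 7.11% of all genes.

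**Figure D4:**
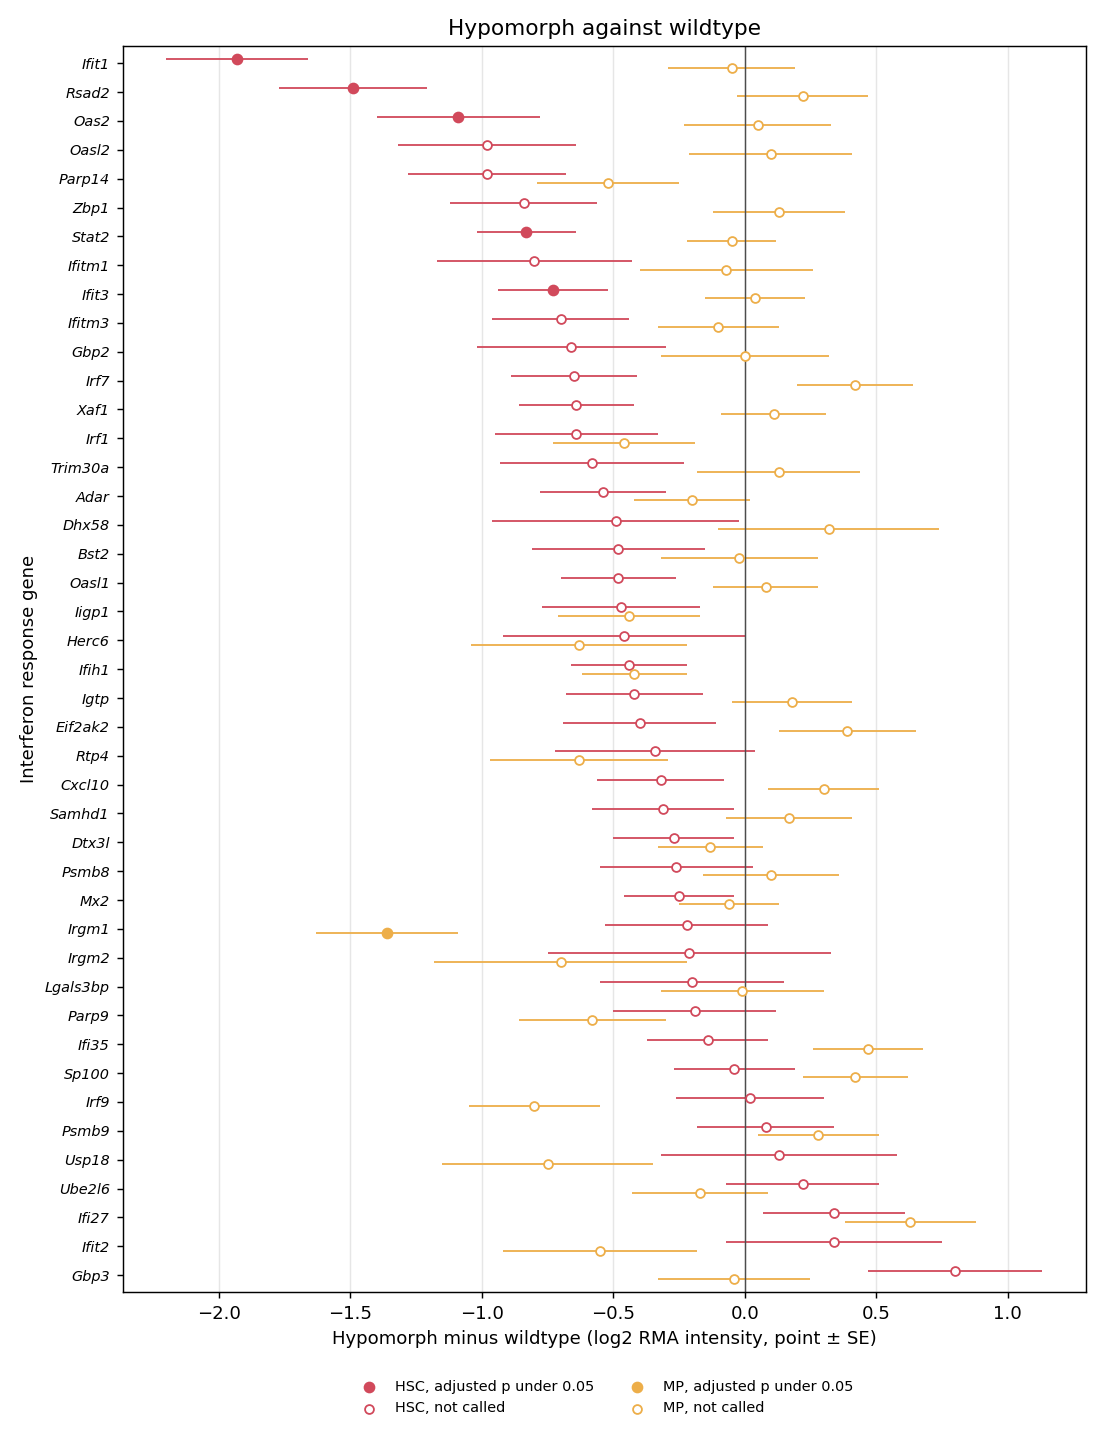
Hypomorph minus wildtype difference (x axis, log2 RMA intensity, point and SE) of the 43 tested members in HSC (red) and MP (yellow); filled points have an adjusted p under 0.05. The HSC differences run from -1.93 (Ifit1) to 0.8 (Gbp3), and in MP only Irgm1, at -1.36, is filled.

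Among wildtype cells, MP had lower levels of 23 of the 43 interferon response genes than HSC and a higher level of 1. The 23 are 53.5% of the members, beside 18% of all genes called lower, and the 1 is 2.33%, beside 13.8% called higher. The median difference was -0.82, against -0.12 over all genes. All MP arrays lay below both HSC arrays for 33 members (76.7%), against 33.7% of all genes, and above them for 1, against 23%. Comparisons with wildtype HSC share the same 2 arrays, so their values are given side by side and not as independent. By role, the count lower was 3 of 4 transcription factors, 2 of 3 IFIT genes, 4 of 7 GTPases, 3 of 3 OAS genes, 3 of 5 RNA sensors and editing genes, 1 of 7 of the ISG15 pathway and ubiquitin, 3 of 5 restriction factors, 0 of 2 immunoproteasome subunits and 4 of 7 others.

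Iigp1, an effector GTPase that attacks the vacuoles of intracellular parasites, had the largest fall. It was at 7.92 and 8.1 in wildtype HSC and at 4.04, 3.9 and 3.46 in wildtype MP, lower by 4.21 (SE 0.3, limma adjusted p = 4.44e-07). The MP arrays lay below the array medians, so the MP level may be no more than background, and the further probe set was lower by 3.4. Ifit1 fell from 6.88 and 7.54 to 3.89, 3.97 and 3.36, a difference of -3.47 (SE 0.27, limma adjusted p = 8.89e-07). Its MP arrays also lay below the array medians. Rsad2 fell from 9.1 and 8.88 to 6.27, 5.71 and 6.18, by 2.94 (SE 0.28, limma adjusted p = 5.39e-06). Oasl2, an OAS protein with ubiquitin-like domains, was at 4.91 and 6.32 in wildtype HSC and at 2.7, 2.84 and 2.97 in MP, below the array medians. The 2 HSC arrays of Oasl2 stood apart from each other, but both lay above the MP arrays, and the difference was -2.78 (SE 0.34, limma adjusted p = 5.63e-05). Iigp1, Ifit1 and Oasl2 reached the filter threshold of 4.64 on HSC arrays only, so they entered the tests through the cells where they are high. Their falls from HSC, which the counts of lower members in MP and in B progenitors include, carry that limit.

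Gbp3, a guanylate-binding GTPase, was the only higher member. It was at 9.6 and 8.88 in wildtype HSC and at 10.81, 9.98 and 10.86 in wildtype MP, higher by 1.31 (SE 0.33, limma adjusted p = 0.00813). The call was kept in 20 of 21 alternatives and lost without wildtype HSC array 2, where the difference was 0.95. That run left 1 wildtype HSC array, and the median difference of all genes was then -0.08.

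The same comparison in hypomorph cells gave 18 lower members (41.9%), beside 7.47% of all genes, and 0 higher, beside 4.18%. At an unadjusted p under 0.05 there were 22 lower and 0 higher, together 51.2%, beside 22.8% of all genes. The median difference was -0.67, against -0.03 over all genes. The MP arrays lay below all HSC arrays for 22 members (51.2%), against 15.9% of all genes, and above them for 1, against 11.6%. These arrays are not those of the wildtype comparison, but both comparisons come from 1 model with a shared estimate of the spread. In both, 13 members were lower: Gbp2, Ifi27, Ifih1, Ifit1, Ifitm3, Igtp, Iigp1, Irf1, Lgals3bp, Oasl2, Rsad2, Rtp4 and Xaf1. They are 56.5% of the 23 and 72.2% of the 18. The same overlap was not counted over all genes, so it is not read as particular to the members. A further 10 were called in the wildtype comparison and not in the hypomorph one, among them Stat2, Oas2, Ifit3, Irf7, Zbp1 and Parp14, and 5 in the hypomorph comparison and not in the wildtype one (Irf9, Irgm1, Irgm2, Parp9 and Usp18). None of the members called in a single genotype passed the interaction test. Ifit1 and Rsad2, which did, were among the 13 lower in both genotypes, and the MP arrays of Ifit1 lay below the array medians. Iigp1 had the largest fall here too, from 7.97, 7.27 and 7.37 to 3.46, 3.35 and 3.26, by 4.18 (SE 0.27, limma adjusted p = 2.73e-07). Its MP arrays again lay below the array medians. For Rtp4, a chaperone of receptors at the cell surface, the difference was -2.88 (SE 0.34) and for Usp18 -2.11 (SE 0.4).

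Wildtype B progenitors had lower levels than wildtype HSC of 22 of the 43 members (51.2%), beside 30.2% of all genes, and a higher level of 1 (2.33%), beside 14.9%. The median difference was -0.67, against -0.25 over all genes. Both B progenitor arrays lay below both HSC arrays for 30 members (69.8%), against 44.4% of all genes, and above them for 1, against 23.8%. With each array centred on its median, the median of all genes moved from -0.25 to 0.22, that of the members to -0.2, and the lower members numbered 18 (41.9%), beside 19.5% of all genes, while the share of called genes that were higher went from 33% to 57.4%. The members lower in both MP and B progenitors than in wildtype HSC numbered 17, an overlap not counted over all genes. Those called lower in B progenitors and not in MP were Bst2, Ifitm1, Irgm2, Psmb8 and Psmb9. Irgm2 was close to the threshold in MP as well (-1.43, limma adjusted p = 0.0589).

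The membrane proteins that restrict virus entry fell furthest. Ifitm3, which stiffens endosomal membranes, was at 11.75 and 12.17 in HSC and at 5.23 and 6.03 in B progenitors, lower by 6.33 (SE 0.28, limma adjusted p = 1.14e-09), or 80.5-fold. Its neighbour Ifitm1, the form at the cell surface, was at 13.35 and 13.38 in HSC and at 6.62 and 8.42 in B progenitors, lower by 5.85 (SE 0.4, limma adjusted p = 7.94e-08). The B progenitor arrays differed by more than the HSC arrays for both genes, but by far less than the distance to HSC. Lgals3bp, a secreted galectin ligand, was at 8.34 and 8.72 in HSC and at 4.53 and 4.21 in B progenitors, lower by 4.16 (SE 0.38, limma adjusted p = 1.2e-06). Iigp1 was at 4.52 and 3.52 in B progenitors, lower by 3.99 (SE 0.33, limma adjusted p = 4.05e-07). The B progenitor arrays of Iigp1 and Lgals3bp lay below the array medians. Trim30a, a TRIM protein that limits NF-kappaB signalling, was the higher member, at 9.96 and 9.8 in B progenitors against 8.97 and 8.3 in HSC (1.25, SE 0.39, limma adjusted p = 0.0167). That call was lost without wildtype HSC array 2 or either B progenitor array, and the further probe set of Trim30a differed by -0.36.

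**Figure D5:**
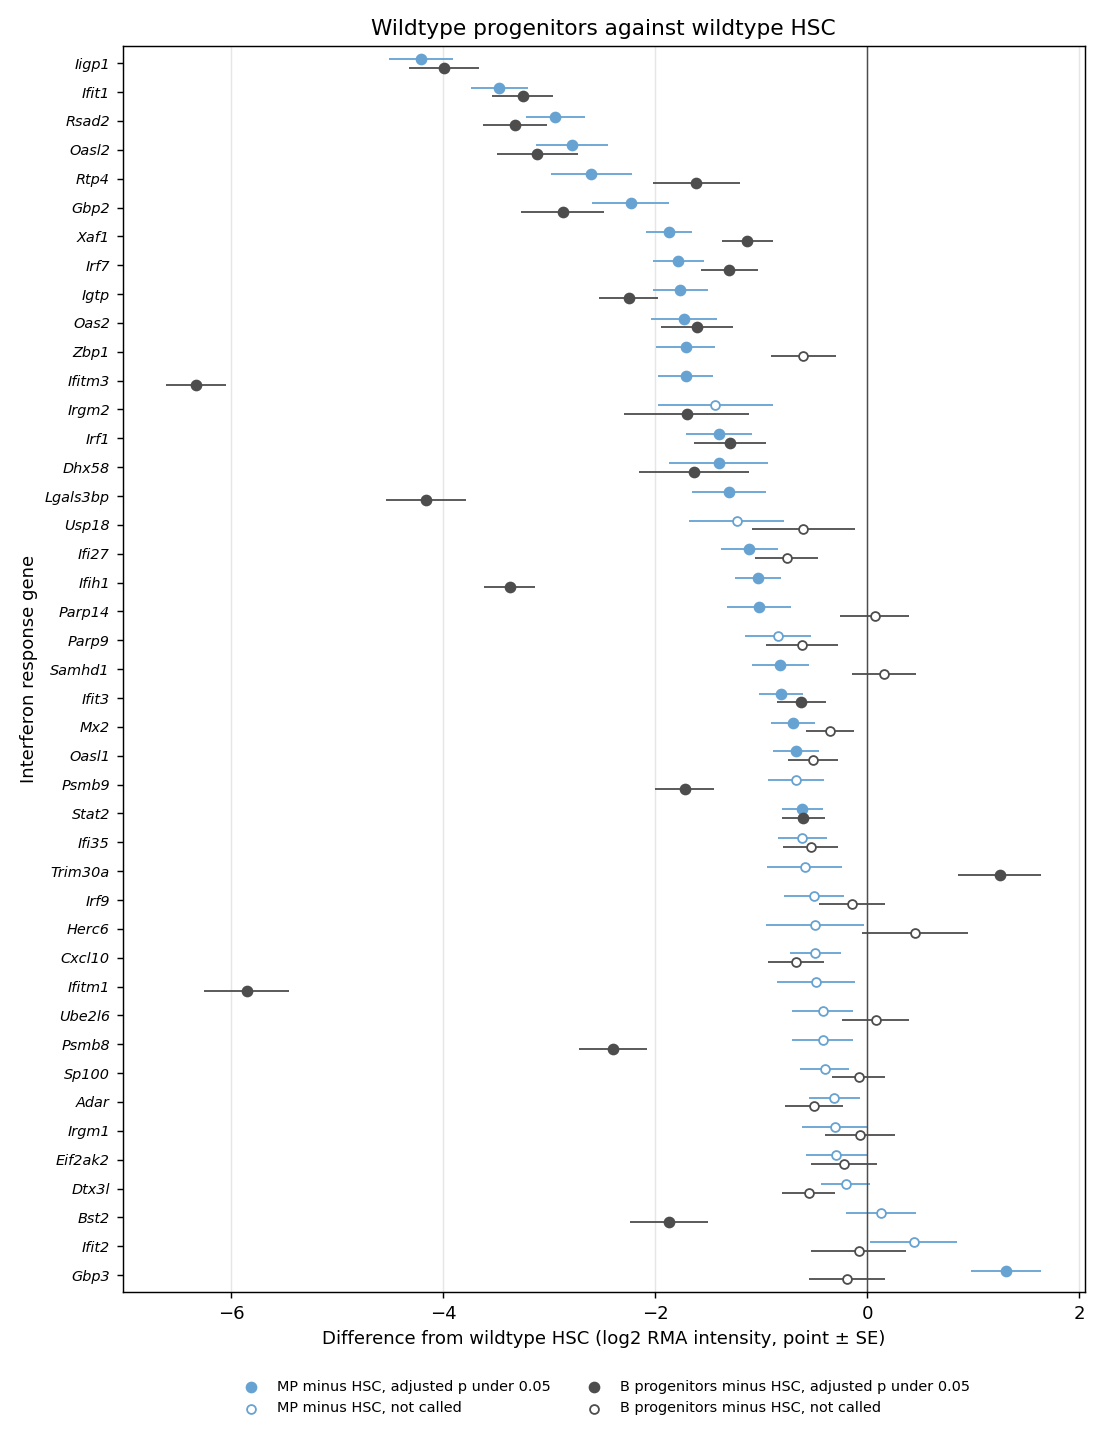
Difference from wildtype HSC (x axis, log2 RMA intensity, point and SE) of the 43 tested members in wildtype MP (blue) and wildtype B progenitors (grey); filled points have an adjusted p under 0.05. Most points lie left of 0, from -4.21 (Iigp1) in MP and -6.33 (Ifitm3) in B progenitors, and Gbp3 (1.31 in MP) and Trim30a (1.25 in B progenitors) are the filled points to its right.

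Between the wildtype progenitors, the members were called in both directions. B progenitors had lower levels than MP of 8 members (18.6%), beside 24.7% of all genes, and higher levels of 5 (11.6%), beside 11.2%. The median difference was 0.11, against -0.13 over all genes. The arrays of B progenitors lay below all MP arrays for 11 members (25.6%), against 37.7% of all genes, and above them for 11 (25.6%), against 21.4%. With each array centred on its median the lower members numbered 7 (16.3%), beside 15.9% of all genes, and the higher 15 (34.9%), beside 24.1%, and the share of called genes that were higher went from 31.2% to 60.3%. Leaving out B progenitor array 1 or array 2 left a single array in that group. The median difference of all genes was then -0.11 or -0.2.

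The lower members again included the entry restriction genes. Ifitm1 was at 12.78, 13.15 and 12.71 in wildtype MP, and B progenitors were lower by 5.36 (SE 0.37, limma adjusted p = 6.42e-08). Ifitm3 was at 10.02, 10.59 and 10.16 in MP, with B progenitors lower by 4.62 (SE 0.26, limma adjusted p = 8.25e-09). Lgals3bp was at 7.18, 7.38 and 7.14 in MP and lower by 2.86 (SE 0.35, limma adjusted p = 2.03e-05) in B progenitors. Ifih1, the cytoplasmic sensor of long double-stranded RNA also called MDA5, stepped down across the populations. It was at 10.4 and 10.53 in wildtype HSC, 9.36, 9.26 and 9.67 in wildtype MP and 6.79 and 7.41 in B progenitors, with B progenitors lower than MP by 2.33 (SE 0.22, limma adjusted p = 1.54e-06).

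Among the higher members, Trim30a was at 8.01, 8.19 and 7.92 in MP and higher by 1.84 (SE 0.35, limma adjusted p = 0.000952) in B progenitors, with its further probe set at -0.4. Zbp1 was at 4.84, 5.33 and 4.86 in MP and at 6.45 and 5.79 in B progenitors, higher by 1.11 (SE 0.28, limma adjusted p = 0.00691). Parp14 was at 8.32, 8.17 and 8.61 in MP and at 9.5 and 9.41 in B progenitors, higher by 1.09 (SE 0.3, limma adjusted p = 0.0106). Samhd1 was at 9.06, 8.81 and 9.02 in MP and at 9.62 and 10.26 in B progenitors, higher by 0.98 (SE 0.27, limma adjusted p = 0.0116). None of these 4 genes overlapped between the populations, and Zbp1, Parp14 and Samhd1 were among the members with lower levels in wildtype MP than in HSC. Xaf1, a proapoptotic zinc finger protein, was the fifth, higher by 0.73 (SE 0.22).

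Of the 43 members, 9 were called in 0 of the 7 comparisons: Ifit2, Eif2ak2, Adar, Herc6, Ube2l6, Dtx3l, Ifi35, Cxcl10 and Sp100. They include Herc6, the mouse ligase for ISG15, and Ube2l6, its conjugating enzyme. Members next to each other on a chromosome did not share their calls throughout. Dtx3l, Parp9 and Parp14 lie with 0 protein-coding genes between neighbours on chromosome 16, yet Parp14 was called lower than HSC in wildtype MP, Parp9 in hypomorph MP, and Dtx3l in neither. The wildtype difference of Parp9 was -0.84 (limma adjusted p = 0.0573), and its interaction of 0.39 did not pass the test. Oasl2 and Oasl1 are adjacent on chromosome 5 and were both lower in MP than in HSC of wildtype mice.

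Of the 43 members, 16 had several tested probe sets. In HSC between genotypes, 5 of these 16 had 1 or more further probe sets of opposite sign, none of them a called member; in MP the number was 7. In wildtype MP against HSC all 8 called members with several probe sets had the same sign in each. In hypomorph MP against HSC the exception among 5 was Xaf1. In B progenitors against HSC the exceptions among 6 were Psmb8, Trim30a and Xaf1. The other 4 HSC genotype calls rested on a single tested probe set each.

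The further genes of the pathway were taken from lists chosen with earlier results of these data known. Of 9 interferon ligand genes with a probe set, 1 (Ifna1) passed the filter, and the list averaged 3.4 to 3.74 on every array, below the array medians. Ifna1, a type I interferon, was higher in B progenitors than in wildtype HSC by 0.89 (SE 0.25) and than in wildtype MP by 1.01 (SE 0.23); the first call was lost without HSC wildtype 1. Of 15 receptor and signalling genes 0 were called in HSC or in MP, with medians of -0.09 and -0.18. At an unadjusted p under 0.05 limma gave 1 lower in HSC and 3 lower in MP. Over all genes, 26.2% in HSC and 15% in MP had such a p. Of 15 sensing genes, 2 were lower in hypomorph HSC (13.3%), beside 5.44% of all genes. They were Ikbke, a kinase that activates Irf3 (-1.22, SE 0.24), and Irf3 itself (-0.87, SE 0.26). Irf3 was also the 1 lower gene of the 5 IRF genes outside the members. Of 46 other interferon-stimulated genes, 5 were lower in hypomorph HSC (10.9%), beside 5.44% of all genes, and 1 higher (2.17%), beside 5.37%. Their median was -0.18, against -0.11 over all genes. The largest falls were in the guanylate-binding GTPases Gbp6 (-2.2, SE 0.45) and Gbp8 (-1.87, SE 0.44) and in Oas1a (-1.09, SE 0.28). Usp25, a ubiquitin protease, was the higher gene (1.48, SE 0.38). It was also the only gene of these lists called in the interaction (2.41, SE 0.5, limma adjusted p = 0.0161, over alternatives 0.00205 to 0.0713). The HSC calls of Ikbke, Irf3, Gbp6, Gbp8, Oas1a and Usp25 were each lost without HSC wildtype 2, as was the interaction call of Usp25. The Irf3 call held in 4 of 21 alternatives. Usp25 also lost its HSC call without HSC hypomorph 2, Oas1a without HSC hypomorph 3, and the Usp25 interaction without MP wildtype 1 or MP wildtype 3. Both Usp25 calls were lost with the mean of probe sets as well. Over the alternatives its difference went as low as 0.58 in HSC and 1.07 in the interaction. Of 8 antigen processing genes 0 were called in HSC or in MP; 0 in HSC and 1 in MP had an unadjusted p under 0.05. Between the genotypes in MP, limma called 0 genes of each of these lists. At an unadjusted p under 0.05 there were 6 lower and 1 higher among the 46 other interferon-stimulated genes, beside 15% of all genes. The sensing genes had 1 lower and 1 higher, the IRF genes 1 lower and the ligands 0. Against wildtype HSC, 18 of the 46 other interferon-stimulated genes were lower in wildtype MP (39.1%), beside 18% of all genes. A further 4 were higher (8.7%), beside 13.8%. The median was -0.6, against -0.12 over all genes.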

How the data were processed

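RNA of sorted cells was hybridised to Affymetrix arrays. The values deposited by the authors are RMA intensities, per the submitters' processing notes, and were read as log2 from their range of 1.93 to 14.99. Their RMA version and log base are not given in the sources used here. Of the authors' columns, 13 are arrays normalized together, used here, and 11 the HSC and MP arrays in a second normalization, used as an alternative. Of 45101 probe sets, 34958 had 1 gene symbol, 932 several and 9211 none. Each gene was represented by its probe set of highest mean, and tested if 2 or more arrays were at or above 4.64, the overall median. The 5 groups were fitted in 1 limma model (version 3.58.1, R 4.3.3; 8 residual degrees of freedom), with Benjamini-Hochberg adjustment over the 12765 genes in each of 7 comparisons; a gene was called at an adjusted p under 0.05. The calculation was tested on simulated data. The members and lists were chosen with earlier results of these data known. Members called in a genotype comparison or the interaction, and the 4 called members with the largest rise and the 4 with the largest fall in each wildtype cell type comparison, are given array by array; of each further list, up to 3 called genes per direction are named. Promoter sequences are from RefSeq, and 35 members were matched.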

Additional observations from a re-analysis of the deposited data

Results flagged for a closer look

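The genotype difference of Ifit1 in HSC differed from that in MP by -1.88 in the interaction term (SE 0.36). Hypomorph HSC were lower by 1.93 and the difference in MP was -0.05. The MP arrays of Ifit1 lay below the array medians, so a fall there may not be measurable. For Rsad2 the interaction was -1.71 (SE 0.37), from -1.49 in HSC and 0.22 in MP. Both genes also had lower levels in MP than in HSC of either genotype.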

How the results depend on the processing

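Ifit1 and Rsad2 in HSC kept direction and call in each alternative in which they were tested. The replicate block gave 3 lower members in HSC (6.98%), beside 3.3% of all genes, and 0 in MP, beside 0.196%. Correlations of same-numbered arrays ran from -0.2 to 0.3. With so few arrays per group they cannot show whether the numbers pair the arrays. Fitting only the arrays compared gave 2 lower in HSC (4.65%), beside 0.454% of all genes. A filter at the 75th percentile (7.1) left 28 members. It gave 2 lower in HSC (7.14%), beside 5.68% of all genes, and 1 in the interaction (3.57%), beside 2.31%. In wildtype MP against HSC it gave 15, where 18.3% of all genes were lower. In the second normalization the lower members were 0 in MP and 1 in the interaction, and without a filter 0 in MP. Array weights, by the gene-by-gene algorithm because the default one stopped before converging, gave 8 lower (18.6%) and 4 higher (9.3%) in MP, beside 19.1% and 11.5% of all genes, 7 lower (16.3%) and 2 higher (4.65%) in the interaction, beside 9.51% and 11.8%, and 1 higher in hypomorph MP against HSC. The mean of probe sets gave 0 higher in B progenitors against HSC, and centring gave 15 higher in B progenitors against MP. The share of called genes that were higher in hypomorph HSC went from 49.7% to 60.1% with centring. The cause of these changed counts and shares was not tested. Leaving out each array in turn gave, for lower and higher members, 2 to 8 and 0 to 0 in HSC, 0 to 1 and 0 to 0 in MP, 1 to 5 and 0 to 1 in the interaction, 15 to 27 and 0 to 1 in wildtype MP against HSC, 15 to 20 and 0 to 1 in hypomorph MP against HSC, 17 to 24 and 0 to 1 in B progenitors against HSC, and 6 to 9 and 3 to 6 in B progenitors against MP. No called member difference changed sign under any alternative run. Of those not called, 12 of 38 did in HSC, 18 of 42 in MP, 14 of 41 in the interaction, 4 of 19 in wildtype MP against HSC, 10 of 25 in hypomorph MP against HSC, 11 of 20 in B progenitors against HSC and 17 of 30 in B progenitors against MP. Those named in the report, or called under some alternative, were as follows, with ranges over the arrays left out. In HSC, Bst2 ran from -0.99 to 0.04, Irf9 from -0.13 to 0.16, Psmb9 from -0.14 to 0.29 and Psmb8 from -0.44 to 0 (0.6 with the mean of probe sets). In MP, Ifit1 ran from -0.24 to 0.13 (0.06 centred, 0.16 with array weights), Stat2 from -0.13 to 0 (0.06 centred), Ifit3 from -0.08 to 0.11 and Oas2 from -0.04 to 0.19. In wildtype MP against HSC, Adar ran from -0.75 to 0.13 and Dtx3l from -0.45 to 0.05. In B progenitors against MP, Gbp2 ran from -1.48 to 0.21, Ifit3 from -0.06 to 0.44 and Usp18 from -0.02 to 1.27. With the mean of probe sets, Eif2ak2 was at -0.19 in hypomorph MP against HSC and Ifi27 at -0.04 in B progenitors against MP. Dim probe sets limit what can be measured: Mx1 and 8 of the 9 ligands with a probe set failed the filter.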

Other observations

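The ISRE core was found in the promoters of all 4 members lower in hypomorph HSC that had a promoter entry, and in 11 of the 29 other tested members with an entry (37.9%). The GAS was found in 0 of the 4 and in 11 of the 29. Among members lower in wildtype MP than in HSC, 8 of 15 held the ISRE core (53.3%), against 7 of 18 of the rest (38.9%), and among those lower in B progenitors 10 of 18 (55.6%), against 5 of 15 (33.3%). These are counts of letters in few promoters, with no test.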
